A study of Arabidopsis thaliana with 18 samples.

Results

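Excess light (EL) was applied once more to Arabidopsis leaves that had already been through a week of recurring EL, and their mRNA was compared with that of leaves given the same week and no further exposure. The comparison used 6 of the 18 samples of the study, namely the libraries labelled primed (P, n = 3) and primed + triggered (P+T, n = 3), and was restricted to nuclear loci. All plants were wild-type Col-0, 3 weeks old, grown on soil under a 12-h photoperiod of 100 to 150 µmol photons m-2 s-1, and true leaves 4 to 9 were taken. EL was 1000 µmol photons m-2 s-1, and each exposure lasted an hour and was repeated through the day for a week in both groups, so that P leaves had met EL as often as P+T leaves until the triggering exposure. The control group was therefore stressed before and had no naive member. Naive (N) and naive + triggered (N+T) libraries, 2 of each, served only to share the estimate of spread and to ask whether a response differed between primed and naive leaves. The time between triggering and harvest was not given in the sources used here, and the methods describe replicates as independent plants.

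EL delivers more photons than photosynthesis can use, raises the level of reactive oxygen species and, under lamps, warms the leaf. Plant cells answer unfolded proteins by separate routes. In the cytosol and organelles, heat shock transcription factors (HSFs) raise HSP70, HSP90, HSP101 and the small HSPs, which hold, refold or disaggregate proteins. In the endoplasmic reticulum (ER), the membrane-tethered factors bZIP28 and bZIP60 raise BiP, calnexin, calreticulins and protein disulphide isomerases in the unfolded protein response, partly through promoter sites of the ER stress response element (ERSE) type. Photosynthesis, antenna, pigment and growth genes are regulated by light and by the circadian clock in the same leaves.

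The P and P+T libraries held 22164721 to 33063693 nuclear counts, of which the 10 most abundant loci took 7.49 to 11.8%. No 2 libraries held the same counts, and each was counted as 1 sample. The leaf label was checked against cell type markers: RBCS1A, CA1 and 2 antenna genes, the mesophyll markers, summed to 29820 to 52960 CPM (read counts relative to library size, scaled by the trimmed mean of M values) in P and 31410 to 39770 CPM in P+T. The meristem and flower markers STM and AP1 had at most 1 count in any of the 6 libraries. Of the 4 guard cell markers 1, AT1G22690, was called lower in P+T (log2 fold change −0.82 ± 0.17, SE), where 2.44% of all loci were. With single libraries left out, it was called without P-r1 only. The 4 markers summed to 64.0 to 86.2 CPM in P and 44.2 to 58.6 CPM in P+T. None of the epidermal, vascular or dividing cell markers was called. In bulk leaves, fewer cells of a type and less RNA per cell cannot be told apart.

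The P libraries differed from each other more than the P+T libraries did, with a mean correlation to the other members of the group of 0.91 to 0.929 in P and 0.947 to 0.963 in P+T. P-r1 held transcripts that were scarce in the other P libraries. The heat shock factor HSFA2 was at 167 CPM in P-r1 and at 0.454 and 0.581 CPM in P-r2 and P-r3, and the disaggregase HSP101 was at 359, 6.29 and 4.97 CPM. The 20 antenna genes summed to 69160 CPM in P-r1 against 152500 and 115800 CPM in P-r2 and P-r3, with 51900 to 81070 CPM in P+T. P-r3 stood apart in other genes, with the morning clock gene CCA1 at 55.2 CPM against 6.69 and 10.1 CPM in P-r1 and P-r2, TOC1, an evening clock gene, at 17.0 against 148 and 95.2 CPM, and the anthocyanin gene DFR at 71.2 against 0.365 and 0.379 CPM. The part of harvest time in these values was not tested. Results are therefore given with all libraries and, where a call or a count changes, with single libraries left out.

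A total of 806 of 17986 nuclear loci differed between P+T and P at a false discovery rate (FDR) below 0.05 (edgeR quasi-likelihood test, Benjamini-Hochberg adjusted). Of these, 368 were higher in P+T (2.05% of the loci tested) and 438 were lower (2.44%). Their median log2 fold change was 1.35 for higher and −1.36 for lower loci, against −0.01 over all loci, and 104 higher and 109 lower loci had changed at least 4-fold. In 805 of the 806, all P+T libraries lay on one side of all P libraries, an arrangement also seen in 12.0% (above) and 13.1% (below) of all loci tested. P-r1 was the P library nearest to the P+T mean for 56.8% of the higher and 57.5% of the lower loci, compared with 40.3% of all loci.

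The number of calls depended on which libraries were in the fit. Without P-r1, 976 loci were called higher (5.43%) and 1266 lower (7.04%), including 353 and 432 of those called with all libraries. Without P-r2 the counts were 132 (0.734%) and 134 (0.745%). Leaving out P-r3 gave 166 higher (0.923%) and 204 lower (1.13%). Leaving out P+T-r1 gave 165 (0.917%) and 130 (0.723%), leaving out P+T-r2 95 (0.528%) and 48 (0.267%), and leaving out P+T-r3 55 (0.306%) and 22 (0.122%). Of the loci called with all libraries, 52 higher and 18 lower were called in each of these 6 fits, while 154 higher and 232 lower were called in the fit without P-r1 and in none of the other 5.

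**Figure D1:**
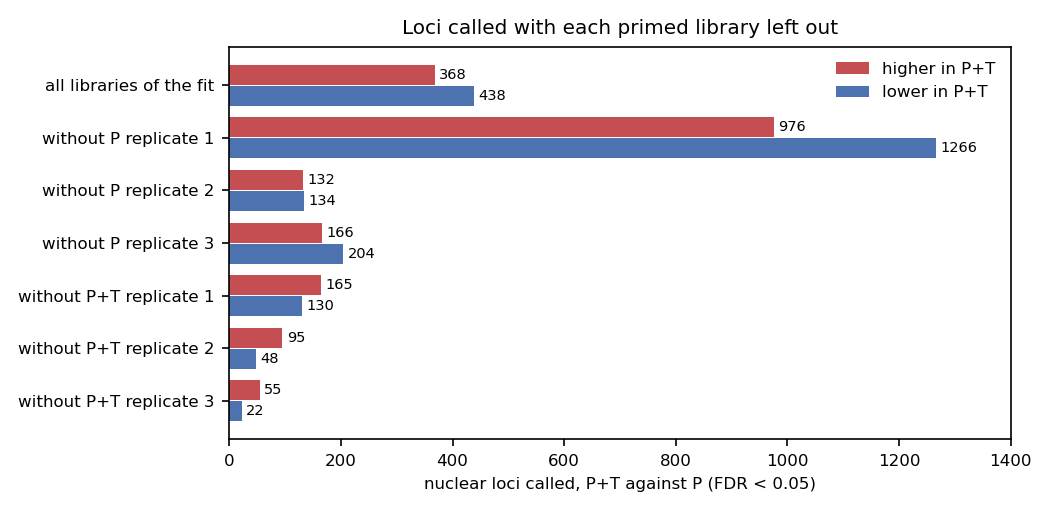
Number of nuclear loci called higher (red) or lower (blue) in P+T than in P at FDR below 0.05, with all libraries of the fit and with each P or P+T library left out. The counts run from 55 and 22 without P+T-r3 to 976 and 1266 without P-r1.

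The 39 pathway lists held 565 genes, of which 529 were measured above the filter on low counts. The lists were written with earlier results of these data known, so a share above that of all loci is no independent support. With all libraries, 33 list members were called higher (6.24%, against 2.05% of all loci tested) and 13 lower (2.46%, against 2.44%), so that the lower share was that of all loci. Without P-r1, 75 and 53 were called (14.2% and 10.0%, against 5.43% and 7.04% of all loci in that fit), among them all of the 33 and 13. Leaving out any other library lowered the higher count, to 16 without P-r2, 22 without P-r3, 19 without P+T-r1, 15 without P+T-r2 and 10 without P+T-r3. The lower counts were 6, 13, 5, 2 and 2, and the 13 without P-r3 shared 8 with those of all libraries. With all libraries, 22 of the 33 higher members belonged to the 4 lists of small HSPs, large HSPs, co-chaperones and ER stress genes, while lists of photosynthesis, jasmonate, salicylate, WRKY and rapid ethylene response genes held none.

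**Figure D2:**
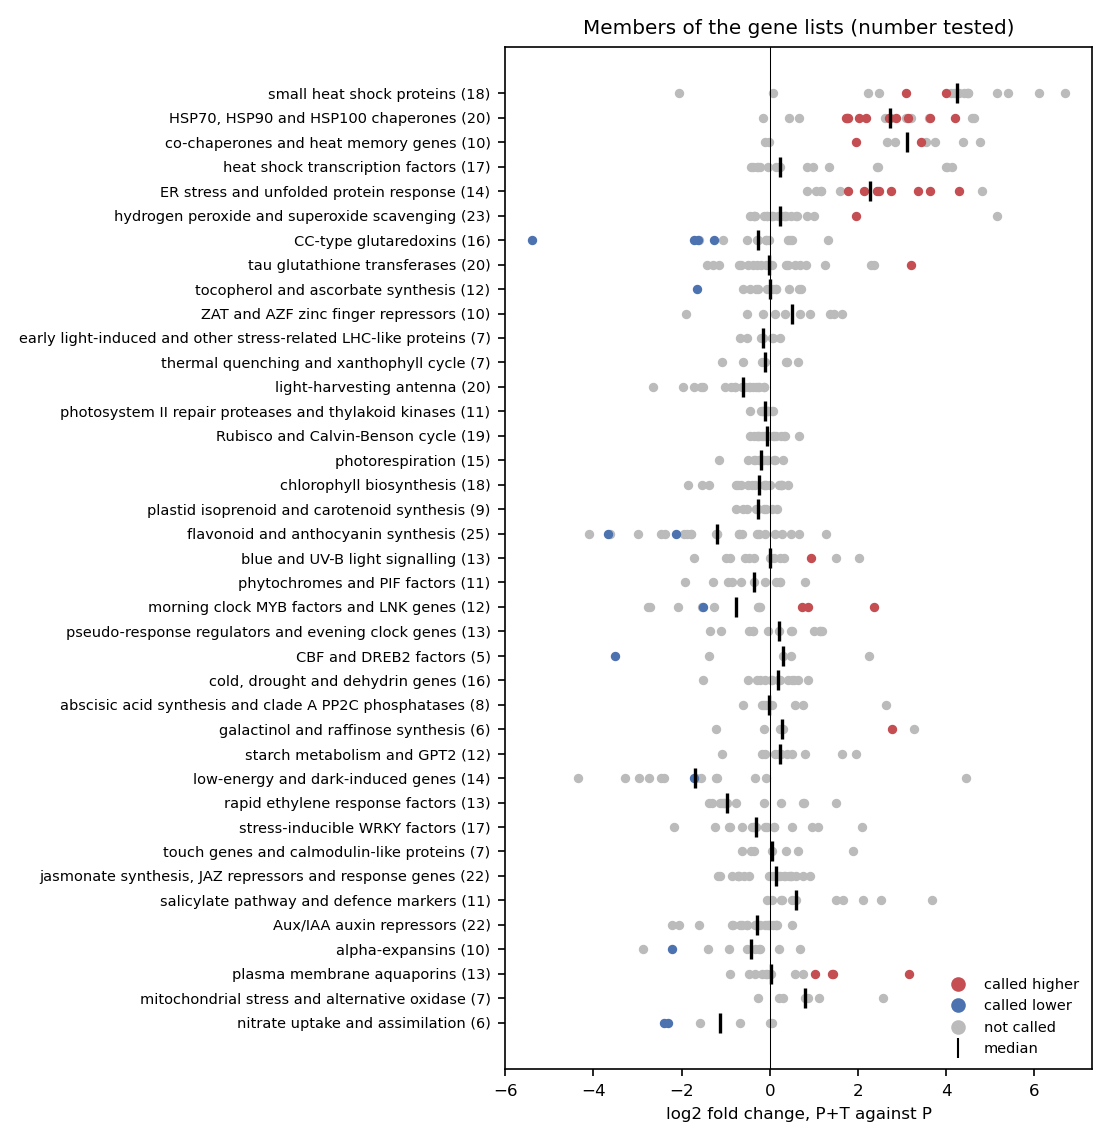
Log2 fold change of each tested member of the 39 gene lists in P+T against P, 1 row per list with the number tested in brackets. Red and blue points were called higher and lower, grey points were not called, and the black bar is the median; small heat shock proteins have the highest median (4.24) and 2 of 18 called.

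The ER folding machinery rose in P+T leaves. Of 14 tested genes of the unfolded protein response, 8 were called higher and none lower, where 2.05% of all loci were called higher. All 14 had a positive log2 fold change, and the median was 2.28 against −0.01 over all loci. BIP2, the HSP70 of the ER lumen, was at 73.6, 47.7 and 115 CPM in P-r1 to P-r3 and at 2260, 1030 and 1326 CPM in P+T-r1 to P+T-r3. The groups did not overlap, and the log2 fold change was 4.29 ± 0.44 (SE, FDR 0.00526). BIP1 had a log2 fold change of 3.63 ± 0.41. BIP1 and BIP2 are 94.1% identical over most of their length, and reads that fit both were not counted, so that their separate levels are uncertain while both moved the same way. SHD, the ER member of the HSP90 family, was at 229, 247 and 335 CPM in P and 3149, 1128 and 1606 CPM in P+T (2.86 ± 0.44, FDR 0.0154).

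The lectin chaperones, which retain glycoproteins until folded, rose with them. CNX1 (calnexin) changed from 116, 88.4 and 185 CPM to 1876, 924 and 1211 CPM, a log2 fold change of 3.36 ± 0.42. The calreticulins CRT1a and CRT1b had log2 fold changes of 2.14 ± 0.33 and 2.42 ± 0.51. Called higher as well were ATERDJ3B, a J-domain partner of BiP (2.75 ± 0.43), SDF2, which acts with it (2.47 ± 0.30), and UNE5, of the protein disulphide isomerase family (1.78 ± 0.32). P+T-r1 was the highest P+T library for each of the 8 called members. BIP3 was at 1.01, 0.341 and 1.61 CPM in P and at 71.1, 3.21 and 10.9 CPM in P+T, without overlap but with an FDR of 0.0606. The regulators bZIP60 (BZIP60, log2 fold change 1.05, FDR 0.127) and bZIP28 (BZIP28, 1.17, FDR 0.0605) did not pass the test, and without P-r1 bZIP28 did (1.47, FDR 0.0141) and bZIP60 did not (1.29, FDR 0.0669).

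Other ER genes stood among the largest increases. Among the 12 higher loci with the largest log2 fold change were PDIL2-2, a protein disulphide isomerase (9.27, 4.28 and 9.30 CPM in P; 172, 70.9 and 98.7 CPM in P+T; 3.90 ± 0.46), UTR3, a nucleotide sugar transporter (14.3, 12.8 and 20.7 CPM; 243, 160 and 201 CPM; 3.66 ± 0.27, FDR 0.00367), ATERDJ3A, an ER J-domain protein (19.1, 1.70 and 5.49 CPM; 286, 195 and 190 CPM; 4.67 ± 0.79), and TIN1, named as induced by tunicamycin, which blocks N-glycosylation (26.5, 1.55 and 4.16 CPM; 266, 235 and 223 CPM; 4.49 ± 0.91). Each P+T library exceeded each P library in all of these, which the choice of the 12 required. Of the 14 list members, 9 were called without P-r1, 7 without P-r3 or P+T-r2, 6 without P+T-r1 and 4 without P-r2 or P+T-r3. BIP1, BIP2, CNX1 and SDF2 were called in each of these 6 fits, as were PDIL2-2 and UTR3, while CRT1b was called without P-r1 and in none of the other 5, and ATERDJ3A and TIN1 only without P-r1 or P-r2.

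Promoter letters of called loci were searched in the 300 bases before each gene start on both strands, with no test. ERSE-I (CCAAT and CCACG separated by any 9 bases), the site type through which ER stress factors act, was present in 13 of 368 higher loci (3.53%), 3 of 438 lower loci (0.685%) and 80 of 17986 loci tested (0.445%), of which 64 were not called. In 8 of the 13, and in 37 of the 80, it overlapped a G-box (CACGTG), which by itself occurred in 14.4% of higher, 5.48% of lower and 8.16% of all loci. None of the 14 list members above (SHD is counted with the HSP90 genes) carried ERSE-I in this window, and ERSE-II (ATTGG and CCACG with 1 base between them) was in no called locus. Sequences of 5 higher loci, all from the 8 with a G-box overlap, are shown to place the match against the gene start, with the matched letters in capitals (TAIR10.1, RefSeq; read 5′ to 3′ on the strand of the gene); the match lies on the opposite strand where it begins with CGTGG.
SHD (chr4:12556059-12556110, minus strand): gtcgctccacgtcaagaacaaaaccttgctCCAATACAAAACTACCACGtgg
P58IPK (chr5:750012-750090, plus strand): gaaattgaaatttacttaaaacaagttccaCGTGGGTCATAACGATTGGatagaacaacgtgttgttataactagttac
PDIL1-2 (chr1:29126554-29126632, plus strand): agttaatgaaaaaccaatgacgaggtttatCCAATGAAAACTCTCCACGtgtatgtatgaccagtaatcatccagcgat
BI1 (chr5:19135743-19135821, plus strand): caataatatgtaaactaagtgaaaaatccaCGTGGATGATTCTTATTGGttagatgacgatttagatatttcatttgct
AT4G16660 (chr4:9376611-9376689, plus strand): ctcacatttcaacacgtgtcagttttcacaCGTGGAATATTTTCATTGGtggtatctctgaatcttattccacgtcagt

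The match began 22 bases before the gene start in SHD, 59 in P58IPK, 64 in PDIL1-2, 179 in BI1 and 58 in AT4G16660. P58IPK, an ER J-domain protein, was at 22.5, 21.0 and 33.6 CPM in P and 252, 127 and 158 CPM in P+T (2.80 ± 0.30, FDR 0.00557). PDIL1-2, a disulphide isomerase, had a log2 fold change of 2.40 ± 0.47, AT4G16660, an Hsp70 family protein, of 2.32 ± 0.32, and BI1, a suppressor of cell death, of 1.55 ± 0.31. With single libraries left out, PDIL1-2 was called without P-r1 or P+T-r2 only. The ERSE search and these 5 loci were chosen after the called loci were known. The motif counts rest on calls with all libraries, some of which were lost with single libraries left out. Higher loci with the G-box overlap that are not shown were AT3G22100, a bHLH protein, AT4G23910, uncharacterized, and AT5G63500, a putative transmembrane protein. GTL1, called lower, had the overlap as well, and with single libraries left out it was called without P-r1 only. A match is a description of letters and not of binding.

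The called HSP70 and HSP90 chaperones included members of the cytosol, chloroplast, mitochondria and ER. Of 20 tested HSP70, HSP90 and HSP100 genes, 10 were called higher and none lower, where 2.05% of all loci were called higher. All P+T libraries lay above all P libraries in 17, against 12.0% of all loci, and the median log2 fold change was 2.72. The summed level was 7537, 2755 and 3682 CPM in P and 37390, 32790 and 31910 CPM in P+T, with P-r1 the highest P library and still below every P+T library. CR88, the chloroplast HSP90, was at 201, 188 and 281 CPM in P and 1056, 864 and 818 CPM in P+T (2.03 ± 0.22, FDR 0.00567). Its mitochondrial relative Hsp89.1 had a log2 fold change of 1.73 ± 0.20, and the chloroplast cpHsc70-2 one of 1.75 ± 0.25. In these organellar genes P-r1 was close to the other P libraries.

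Cytosolic chaperones showed a wider spread in P. HSC70-1, the major cytosolic HSP70, was at 2056, 1069 and 1062 CPM in P and 7252, 5649 and 6059 CPM in P+T (2.18 ± 0.30, FDR 0.0109). Hsp70-2 was at 30.6, 9.62 and 12.8 CPM and then at 520, 250 and 197 CPM (4.19 ± 0.58). The HSP90 genes HSP81-2, HSP81-3 and Hsp81.4 were called, with log2 fold changes of 3.62 ± 0.72, 3.14 ± 0.69 and 1.77 ± 0.33, but they are 90.7 to 93.7% identical to each other over most of their length and their separate levels are uncertain. MTHSC70-2, a mitochondrial HSP70, had a log2 fold change of 2.70 ± 0.49. Another, mtHsc70-1, was not called, at −0.26 without P-r1 and 0.15 without P-r3. The chloroplast cpHsc70-1 was not called either, at 0.27 without P-r1 and 0.66 without P-r3. The most heat-responsive members did not pass the test with all libraries. HSP101 was at 359, 6.29 and 4.97 CPM in P and 1499, 1744 and 1284 CPM in P+T, so that the groups did not overlap, and gave 3.61 ± 1.51 (FDR 0.209) with P-r1 and 8.06 ± 0.78 (FDR 0.00176) without it. HSP90.1 was at 476, 6.10 and 8.39 CPM and at 4316, 4261 and 3677 CPM, with 4.64 ± 1.53 (FDR 0.126) and 9.13 ± 0.44 (FDR 0.000354). Without P-r1, 16 of the 20 were called higher, where 5.43% of all loci were. Without P-r3, P+T-r1 or P+T-r2, 6 were, without P-r2 5 and without P+T-r3 3, namely CR88, Hsp89.1 and Hsp70-2. HSP81-2, HSP81-3, Hsp81.4 and MTHSC70-2 were called without P-r1 and in none of the other 5 fits.

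**Figure D3:**
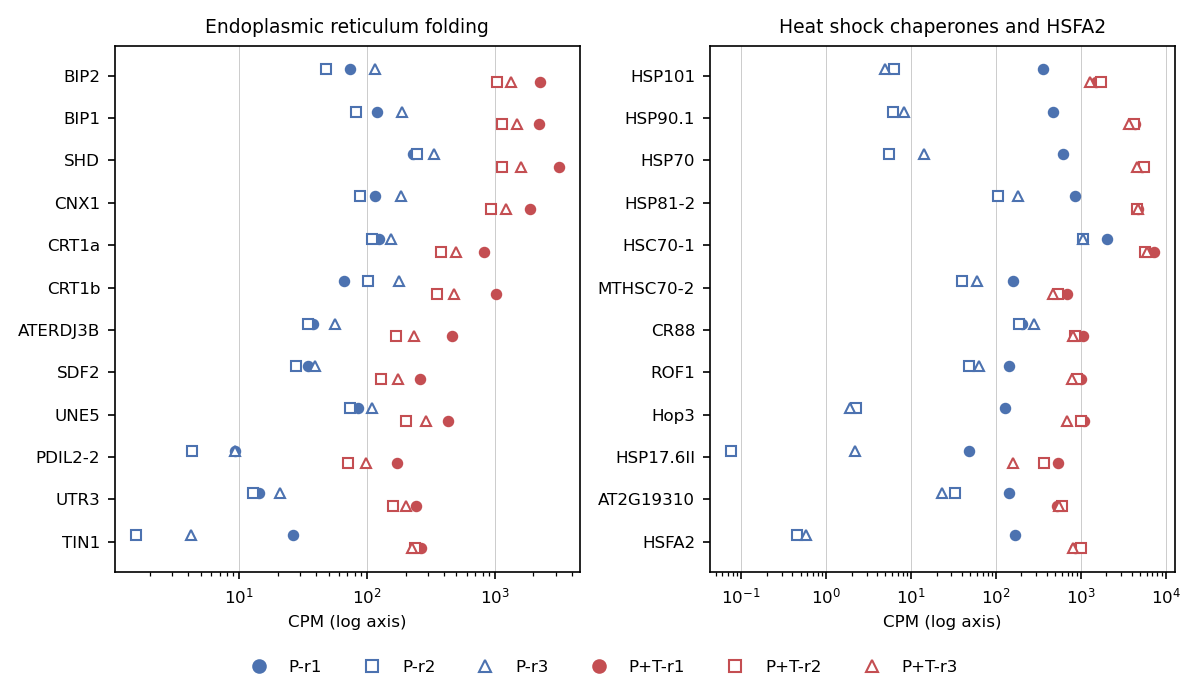
CPM (log axis) of ER folding genes (left) and of heat shock chaperones with HSFA2 (right) in each P (blue) and P+T (red) library; shapes mark the replicate and filled circles are replicate 1. ER genes are separated by group in all libraries, and so are HSP101, HSP90.1, Hop3, HSP17.6II and HSFA2. P-r1 lies between the other P libraries and P+T for these heat shock genes and HSP70, and for TIN1 among the ER genes.

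Small heat shock proteins, which keep unfolding proteins from aggregating, had the highest median of any list, 4.24 over 18 tested genes. All P+T libraries lay above all P libraries in 15 of them, yet only 2 were called with all libraries. Over all loci, 12.0% had that arrangement and 2.05% were called higher. AT2G19310, an HSP20-like chaperone, was at 142, 32.8 and 23.3 CPM in P and 525, 598 and 552 CPM in P+T (3.08 ± 0.63, FDR 0.0351). AT1G54050, of the same family, was at 58.9, 6.44 and 10.9 CPM and at 498, 445 and 270 CPM (3.99 ± 0.91, FDR 0.0466). The list summed to 744.5, 70.4 and 66.3 CPM in P and 6547, 6037 and 3732 CPM in P+T. Without P-r1, 12 of 18 were called higher with a median of 8.65, where 5.43% of all loci were called higher. With any 1 of the other 5 libraries left out none of the 18 was (median 3.67 to 4.57). HSP17.6II illustrates the spread, with 48.1, 0.0757 and 2.19 CPM in P and 536, 369 and 160 CPM in P+T (4.40 ± 1.64, FDR 0.166, and 8.25 ± 1.45, FDR 0.0132, without P-r1). AT4G21870 went the other way, at 29.1, 5.57 and 3.23 CPM in P and 2.38 to 3.68 CPM in P+T, and was not called.

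None of the 17 tested HSFs was called with all libraries, and their median was 0.22. HSFA2, which sustains heat stress responses, was at 167, 0.454 and 0.581 CPM in P and 851, 999 and 816 CPM in P+T. Its log2 fold change was 3.99 ± 1.84 (FDR 0.253) with P-r1 and 10.71 ± 0.79 (FDR 0.000872) without it. HSFA7A was at 14.2, 0.568 and 0.129 CPM and at 102, 88.0 and 73.8 CPM, again with P-r1 between the rest of P and P+T. Without P-r1, 6 HSFs were called higher (against 5.43% of all loci in that fit), including HSFA1D (log2 fold change 1.51 ± 0.14) and AT-HSFB2B (3.90 ± 0.32). With any other single P or P+T library left out, no HSF was called. A heat shock element (GAA, TTC and GAA, or TTC, GAA and TTC, each separated by any 2 bases) occurred in 1.36% of the promoters of higher loci, 0.228% of lower and 0.512% of all loci, and in 2 of the 18 small HSP genes. The one before HSFA2, in capitals, began 88 bases before the gene start.
HSFA2 (chr2:11135506-11135578, plus strand): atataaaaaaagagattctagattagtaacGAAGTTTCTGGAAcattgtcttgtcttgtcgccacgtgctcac

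Co-chaperones and heat memory genes followed the same division. ROF1, a peptidyl-prolyl isomerase that binds HSP90, was at 142, 48.4 and 63.7 CPM in P and 1004, 914 and 800 CPM in P+T (3.42 ± 0.44, FDR 0.00900). Hop2, which links HSP70 with HSP90, was also called (1.96 ± 0.33). These were the 2 called members of 10 (against 2.05% of all loci), with a list median of 3.12. Without P-r1, 8 were called (against 5.43%). ROF1 was called whichever library was left out, and Hop2 without P-r1 or P-r2 only. Hop3 was at 128, 2.23 and 1.90 CPM in P and 1087, 1007 and 690 CPM in P+T, and HSA32, needed for long-term heat tolerance, at 7.62, 1.55 and 2.45 CPM and 32.7, 29.1 and 11.8 CPM. Neither was called with all libraries, and both were without P-r1.

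Of 23 genes for scavenging hydrogen peroxide and superoxide, 1 was called, where 2.05% of all loci were called higher. This was the cytosolic ascorbate peroxidase APX1. It was at 730, 350 and 593 CPM in P and 1977, 2335 and 2143 CPM in P+T, without overlap (1.95 ± 0.28, FDR 0.0112). APX2, its light- and heat-inducible relative, was at 0.225, 0 and 0.0646 CPM in P and 3.57, 6.22 and 1.72 CPM in P+T (5.15 ± 1.16), and missed the threshold at an FDR of 0.0506, whereas without P-r1 it passed (6.59, FDR 0.0379). The call of APX1 was lost without P+T-r2 and without P+T-r3. Among 20 tau class glutathione transferases, which conjugate glutathione to reactive compounds, GSTU5 was called, with 230, 107 and 200 CPM in P and 1629, 1797 and 1558 CPM in P+T (3.21 ± 0.32, FDR 0.00504), also with any 1 library left out. The list median was −0.02.

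Aquaporins of the plasma membrane, channels for water and other small molecules, held 4 called members of 13, all higher, against 2.05% of all loci. RD28 was at 51.8, 16.2 and 51.1 CPM in P and 275, 390 and 390 CPM in P+T (3.15 ± 0.47, FDR 0.0139), PIP2B had a log2 fold change of 1.41 ± 0.24, PIP1B of 1.03 ± 0.21 and PIP2;5 of 1.43 ± 0.28. RD28 and PIP2B are 93.1 to 93.7% identical over most of their length, so their separate levels are uncertain. The list median was 0.03. Without P+T-r2 or without P+T-r3 none of the 13 was called, without P-r2 or P-r3 2 were, without P+T-r1 3 and without P-r1 4. GolS2, a galactinol synthase of the raffinose pathway, was at 2.70, 0.606 and 3.00 CPM in P and 12.8, 15.7 and 14.6 CPM in P+T (2.76 ± 0.48, FDR 0.0209), and lost the call with any 1 P+T library left out.

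Further loci with the largest increases were PAP17, a purple acid phosphatase (12.7, 3.07 and 9.07 CPM in P; 141, 94.0 and 166 CPM in P+T; log2 fold change 4.01 ± 0.49), AtCDC48B, an AAA-type ATPase (35.4, 5.95 and 14.3 CPM; 459, 270 and 201 CPM; 4.06 ± 0.71), NF-YC2, a subunit of the CCAAT-binding factor NF-Y (4.16, 2.16 and 3.03 CPM; 73.8, 44.4 and 41.5 CPM; 4.09 ± 0.34, FDR 0.00454), PPI2, a proton pump interactor (1.24, 0.151 and 0.420 CPM; 22.9, 11.1 and 6.56 CPM; 4.44 ± 0.80), and AT5G12110, an elongation factor 1-beta (93.7, 9.20 and 16.9 CPM; 469, 753 and 613 CPM; 3.94 ± 0.80). Hsp70-2, AT1G54050, BIP2, ATERDJ3A, PDIL2-2, UTR3 and TIN1, described above, complete the 12. PAP17 and NF-YC2 were called whichever library was left out, AtCDC48B without P-r1 or P-r2 only, and PPI2, AT5G12110 and AT1G54050 without P-r1 only.

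The largest decreases included loci with little annotation. AT1G49500 was at 3.88, 56.8 and 49.6 CPM in P and 1.59, 0.626 and 0.294 CPM in P+T (−5.46 ± 1.01, FDR 0.0256). AT5G19190 was at 4.81, 63.9 and 68.9 CPM and at 3.13, 1.72 and 1.56 CPM (−4.42 ± 0.89). In both, P-r1 was below the other P libraries and nearer to P+T. AT5G61590, of the Integrase-type DNA-binding superfamily, had a log2 fold change of −4.23 ± 0.65, AT5G59080 of −3.43 ± 0.43, OFP16, an ovate family protein, of −3.77 ± 0.82, and AT1G15125, a methyltransferase-like protein that overlaps another locus on the same strand, of −3.33 ± 0.65. AT1G49500, AT5G19190 and OFP16 were called without P-r1 and in none of the other 5 fits, AT1G15125 without P-r1 or P-r3, AT5G61590 was lost without P+T-r2 or P+T-r3, and AT5G59080 without P+T-r3.

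Several lower loci act in pigment, wall or sugar metabolism. NCED4, a dioxygenase that cleaves carotenoids, was at 88.2, 619 and 604 CPM in P and 35.1, 21.7 and 27.3 CPM in P+T (−3.96 ± 0.88, FDR 0.0430). HBI1, a bHLH factor that promotes growth, was at 24.3, 184 and 142 CPM and at 8.94, 6.49 and 7.28 CPM (−3.94 ± 0.67). MYBL2, a repressor of anthocyanin synthesis, was at 16.4, 130 and 109 CPM and at 6.57, 7.32 and 5.93 CPM (−3.68 ± 0.70). BXL1, a beta-xylosidase of the cell wall, was at 144, 283 and 45.8 CPM and at 14.1, 17.5 and 16.0 CPM (−3.31 ± 0.59), and PMT6, a polyol and monosaccharide transporter, had a log2 fold change of −3.33 ± 0.61. EXPA1, which loosens growing walls, was the only expansin of 10 to be called, at 170, 213 and 207 CPM in P and 33.4, 48.9 and 45.0 CPM in P+T (−2.21 ± 0.19, FDR 0.00493). EXPA1 was called whichever library was left out. NCED4, HBI1 and MYBL2 were called without P-r1 and in none of the other 5 fits, and BXL1 and PMT6 lost the call with any 1 P+T library left out.

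CC-type glutaredoxins, small thiol oxidoreductases found in land plants, held 4 lower and no higher members among 16 tested (median −0.28). Of all loci, 2.44% were called lower. AT3G62950 was at 2.47, 19.4 and 17.7 CPM in P and 0.529, 0.235 and 0.168 CPM in P+T (−5.40 ± 0.91, FDR 0.0191). AT5G18600 was at 52.0, 120 and 78.8 CPM and at 30.7, 24.1 and 26.5 CPM (−1.62 ± 0.28). The neighbours AT4G15690 and AT4G15700, on chromosome 4, were lower by smaller and tighter margins, with 11.8, 10.3 and 10.5 CPM in P and 4.23, 4.62 and 4.75 CPM in P+T for AT4G15690 (−1.26 ± 0.14, FDR 0.00593) and −1.72 ± 0.28 for AT4G15700. AT4G15690 was called whichever library was left out. The list members AT4G15660, AT4G15670 and AT4G15680, numbered next to them, were not called. Without P-r1 their log2 fold changes were 0.06, −0.08 and −0.10. Of the list, 5 were called lower without P-r1 (against 7.04% of all loci), 4 without P-r3, 3 without P-r2, 2 without P+T-r1 and 1 without P+T-r2 or P+T-r3.

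Single members of other lists were lower. Both nitrate reductase genes, whose products catalyse the first step of nitrate assimilation, were called: NIA1 was at 135, 61.9 and 202 CPM in P and 31.5, 29.8 and 19.7 CPM in P+T (−2.30 ± 0.39, FDR 0.0202), and NIA2 at 389, 520 and 1500 CPM and 142, 205 and 107 CPM (−2.41 ± 0.52). Without P-r3, its highest P library, NIA2 was at −1.59 (FDR 0.0519), and it lost the call without P-r2 as well. With any 1 P+T library left out neither gene was called. PAL2, for the entry into phenylpropanoid synthesis, had a log2 fold change of −2.12 ± 0.36. VTE5, a phytol kinase of tocopherol synthesis, was at 28.4, 58.8 and 54.5 CPM and at 17.4, 15.4 and 12.4 CPM (−1.65 ± 0.27, FDR 0.0180). CBF2, a cold response factor, was at 1.46, 3.26 and 3.58 CPM and at 0.176, 0.156 and 0.378 CPM (−3.52 ± 0.65). TPS10, of the trehalose phosphate synthase family, had a log2 fold change of −1.71 ± 0.31. It was the only called member of 14 low-energy and dark-induced genes, where 2.44% of all loci were called lower. That list had the lowest median of all lists (−1.69, and −2.78 to −1.57 with single P or P+T libraries left out). Only 1 of the 14 had a positive log2 fold change. Others of that list were led by P-r1: ASN1, asparagine synthetase, was at 293, 28.0 and 2.55 CPM in P and 9.83, 2.97 and 2.99 CPM in P+T, and SEN1 at 349, 15.5 and 2.81 CPM and 17.0, 11.0 and 9.63 CPM. PAL2 lost the call with any 1 P+T library left out, VTE5 without P-r2, P+T-r2 or P+T-r3, TPS10 was called without P-r1 or P+T-r1 only, and CBF2 without P-r1 only.

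Light harvesting genes had lower medians without a called member. The 20 antenna genes all had negative log2 fold changes (−2.65 to −0.14, median −0.62). In 1 the groups did not overlap, while 13.1% of all loci had P+T below P without overlap. LHCB2.3 was at 340, 2450 and 2657 CPM in P and 157, 331 and 383 CPM in P+T (−2.65 ± 0.69, FDR 0.0674). Without P-r1, where 7.04% of all loci were called lower, 8 of the 20 antenna genes were, with a list median of −0.86. So were 6 of 18 chlorophyll synthesis genes, among them HEMA1 (−1.86 ± 0.26, FDR 0.00586) and CH1 (−2.36 ± 0.24, FDR 0.00206). With any other single P or P+T library left out, no member of either list was called. HEMA1 was at 164, 742 and 1319 CPM in P and 239, 310 and 306 CPM in P+T, so that P-r1 lay below every P+T library. Several LHCB genes are near copies of each other (CAB1, CAB2 and CAB3 are 94.1 to 96.1% identical), and reads shared between them were not counted.

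NPQ4, ELIP1, STZ, RHL41, GPT2 and HY5, genes often followed under EL, did not pass the test in primed leaves. NPQ4, the PSBS protein of thermal quenching, was at 852, 1534 and 2530 CPM in P and 1309, 1502 and 1554 CPM in P+T (−0.17 ± 0.35, FDR 0.827). ELIP1, an early light-induced protein, was at 3.34, 3.03 and 20.3 CPM and at 7.49, 11.0 and 4.54 CPM (−0.21 ± 0.70), and ELIP2 stayed below the filter in most libraries, with 8, 8 and 235 counts in P and 21, 8 and 4 in P+T. For ELIP1 the sign turned without P-r3 (1.27, FDR 0.136). STZ (ZAT10) was at 5.11, 1.82 and 21.3 CPM and at 12.8, 14.1 and 3.87 CPM (0.12 ± 1.02), and RHL41 (ZAT12) at 2.05, 0.682 and 6.94 CPM and at 16.8, 10.5 and 2.82 CPM (1.63 ± 0.92, FDR 0.351). GPT2, a plastid glucose phosphate translocator, was at 18.7, 1.44 and 6.81 CPM and at 18.6, 34.5 and 30.6 CPM (1.63 ± 0.75, FDR 0.253, and 2.74 ± 0.70, FDR 0.0436, without P-r1). HY5, a bZIP factor of light signalling, was at 7.25, 2.23 and 1.58 CPM and at 13.9, 17.6 and 13.8 CPM, without overlap (2.03 ± 0.50, FDR 0.0585, and 2.97 ± 0.24, FDR 0.00120, without P-r1). In the blue and UV-B list the photolyase PHR1 (AT1G12370) was called, at 2.44, 2.20 and 2.16 CPM in P and 4.01, 4.58 and 4.42 CPM in P+T (0.93 ± 0.17, FDR 0.0257), and was called without P-r1 and in none of the other 5 fits.

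The level of flavonoid genes in P depended on P-r3. Over 25 tested members the median log2 fold change was −1.21 with all libraries and 0.64 without P-r3. TT4 (chalcone synthase) was at 25.9, 55.9 and 248 CPM in P and 64.6, 29.7 and 48.8 CPM in P+T (−1.21 ± 0.79, FDR 0.426). LDOX, a late anthocyanin gene, was at 0.0562, 0.189 and 49.5 CPM and at 1.85, 1.29 and 0.883 CPM. Only MYBL2 and PAL2 of the list were called.

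P-r3 also differed from the other P libraries in clock genes. Of 12 morning genes 3 were higher and 1 lower, where 2.05% and 2.44% of all loci were. RVE2, a MYB-like factor, was at 2.22, 1.17 and 1.61 CPM in P and 13.6, 6.69 and 5.38 CPM in P+T (2.35 ± 0.39, FDR 0.0180), and AT5G64170 at 72.5, 79.0 and 112 CPM and 147, 173 and 157 CPM (0.86 ± 0.18). EPR1 was called with 0.73 ± 0.16, but AT3G10113 is 99.7% identical over 60% of it, which leaves its level uncertain. AT3G54500 was lower, at 66.0, 97.7 and 154 CPM in P and 24.9, 43.0 and 42.9 CPM in P+T (−1.52 ± 0.33). CCA1, at 6.69, 10.1 and 55.2 CPM in P and 6.70, 12.6 and 10.7 CPM in P+T, was not called (−1.26 ± 0.71), nor was PRR9 (−0.38 ± 0.51), and both had a positive value without P-r3 (0.26 and 0.60). None of the 13 evening genes was called, and TOC1, ELF4 and FKF1 were lowest in P-r3. Without P-r1, 3 morning genes were higher and 3 lower, without P-r3 1 and 1, without P+T-r1 or P+T-r3 1 and none, and without P-r2 or P+T-r2 none was called.

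**Figure D4:**
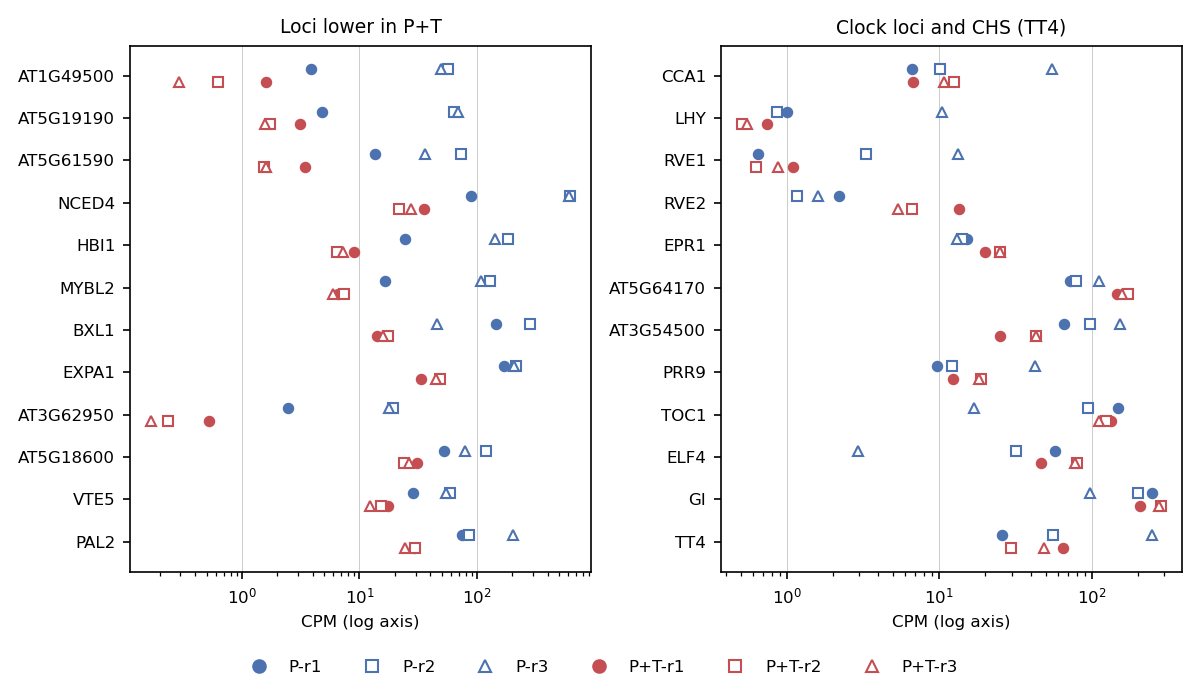
CPM (log axis) of loci lower in P+T (left) and of clock loci with TT4 (right) in each P (blue) and P+T (red) library; shapes mark the replicate and filled circles are replicate 1. P-r1 is the P library nearest to P+T for AT1G49500, NCED4 and MYBL2, and P-r3 stands apart for CCA1, LHY, TOC1, ELF4 and TT4.

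Hormone and defence lists showed large spread and no calls. Jasmonate genes (22 tested, median 0.15) were low in P-r2, as for VSP2 with 860, 23.9 and 773 CPM in P and 805, 264 and 121 CPM in P+T. Salicylate genes (11 tested, median 0.59) were highest in P+T-r1, where BGL2, a pathogenesis-related glucanase, was at 645 CPM against 20.5 and 70.4 CPM in P+T-r2 and P+T-r3 and 3.07 to 42.4 CPM in P. Aux/IAA repressors (22 tested, median −0.29), WRKY factors (17, −0.32) and rapid ethylene response factors (13, −0.97) also had no called member. Without P-r1, 4 of the 22 Aux/IAA genes were called lower, where 7.04% of all loci were. With any other single P or P+T library left out, no Aux/IAA gene was called.

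Whether triggering acted differently in primed than in naive leaves was tested as the difference of both responses in the same fit. Of 17986 loci, 1 passed (0.00556%), and 3006 had an unadjusted p below 0.05. The locus was AT4G15690, with 4.97 and 4.59 CPM in N, 11.7 and 11.5 CPM in N+T, 11.8, 10.3 and 10.5 CPM in P, and 4.23, 4.62 and 4.75 CPM in P+T. In these libraries it was higher in N+T than in N and lower in P+T than in P, with a difference of −2.54 on the log2 scale (FDR 0.0325). With N-r3 and N+T-r3 included, so that all 12 libraries were fitted, the difference was −1.11 (FDR 0.997, same test). CYP71A22, a cytochrome P450 with a near copy beside it (90.8% identical), and UMAMIT20, a transporter of the nodulin MtN21 family, had differences of −2.54 and −2.91 and an FDR of 0.120 each. AT4G15700, NIA1 and NIA2 had higher values in N+T than in N and lower values in P+T than in P, and their differences (−3.48, −3.52 and −4.62) did not pass either, at FDR 0.120, 0.137 and 0.137. The difference for AT4G15690 was −2.57 to −2.47 with single P or P+T libraries left out, and it passed without P-r1 (FDR 0.0215) or P+T-r1 (0.0461) and not without P-r2 (0.0931), P-r3 (0.135), P+T-r2 (0.264) or P+T-r3 (0.227). Without P-r1, 242 loci passed (1.35%).

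**Figure D5:**
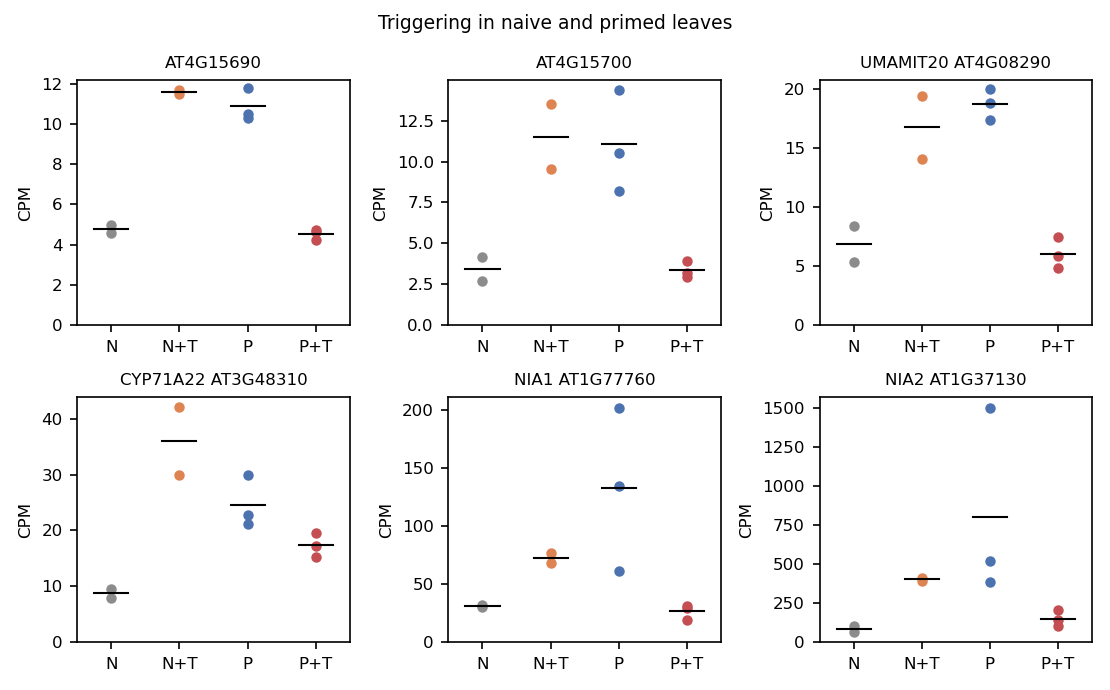
CPM of AT4G15690, AT4G15700, UMAMIT20, CYP71A22, NIA1 and NIA2 in each fitted library of the N, N+T (n = 2), P and P+T (n = 3) groups, with black lines at group means. N-r3 and N+T-r3 are not shown. In AT4G15690 the N+T and P libraries (10.3 to 11.8 CPM) lie above the N and P+T libraries (4.23 to 4.97 CPM), and it is the only one of these loci whose difference passed.

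The 806 loci mostly had the same direction in naive leaves. Their log2 fold change from N to N+T, measured in libraries that enter no P or P+T value, had the same sign in 741 (91.9%), compared with 66.6% of all loci tested. The 22 called chaperone and ER list members all had a positive value in naive leaves. BIP2 had a log2 fold change of 4.85 in naive and 4.29 in primed leaves and CR88 of 2.41 and 2.03. Among other genes, the peroxidase APX1 had 1.73 and 1.95, and the aquaporin RD28 had 3.15 in both. None of the differences for these 4 named genes passed the test of the interaction.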

How the data were processed

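The authors trimmed the reads (Trim Galore 0.3.7, cutadapt 1.9, per the labels), aligned them to TAIR10 with Subread 1.6.2, kept uniquely mapping reads and counted them by strand over Araport11 loci with featureCounts. The deposited values are raw counts over whole gene spans, introns included, without normalization. Files of methylation calls were not used here. Of 33341 loci listed, 133 chloroplast, 152 mitochondrial and 4 rRNA loci were removed (at most 0.174% of the counts of a P or P+T library). The 17986 loci that exceeded 1 CPM in 3 or more of the 12 mRNA libraries were tested. As in the methods of the study, N-r3 and N+T-r3 were left out. TMM scaling and the quasi-likelihood test in edgeR 4.0.16 (legacy = TRUE, R 4.3.3, limma 3.58.1) were applied to the other 10 libraries, with 1 mean per group, and adjusted by the Benjamini-Hochberg method over all loci, FDR below 0.05. A log2 fold change is the edgeR estimate and its SE is that estimate before shrinkage over the square root of F. CPM values are TMM-scaled. Replicates are single plants, so p-values cover the spread between these plants.

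On simulated counts with 200 changed loci among 17986, the fit recovered 72.5% of log2 changes of 2 and 0% of log2 changes of 1 in P+T against P. DESeq2 1.42.0 was an alternative. Python 3.11.15 with pandas 2.3.3, numpy 2.4.6 and matplotlib 3.10.9 made the tables and plots. Near copies (at least 90% identity over at least 50% of the gene) were found with blastn 2.17.0.

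Gene lists, members and tests were chosen with earlier results of these data known. Named genes were the 12 higher and 12 lower called loci whose log2 fold change was furthest from 0, given no overlap between groups and a mean of at least 5 CPM; the called member with the smallest p in each list and direction; 14 genes chosen by name; and the 3 loci with the smallest interaction p. BIP2 and AT4G15690 fall under several parts of this rule, and other list members named here were chosen after their values were seen. Symbols, sequences and product names are from RefSeq (TAIR10.1), which matched 32909 loci.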

Additional observations from a re-analysis of the deposited data

Results flagged for a closer look

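AT4G15690, a member of the thioredoxin superfamily counted among the CC-type glutaredoxins, was picked out because its triggering response differed between primed and naive leaves by the test of the difference itself (−2.54 on the log2 scale, FDR 0.0325, edgeR). Triggering changed it by 1.27 in naive and −1.26 in primed leaves. The call was lost in 8 of 15 alternatives: with all 12 libraries (−1.11, FDR 0.997), without a filter on low counts (0.0768), with a minimum log2 change of 0.5 (0.0565), under the replicate block (0.149), and without P-r2, P-r3, P+T-r2 or P+T-r3. Naive groups had 2 libraries each.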

How the results depend on the processing

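With all libraries, 368 loci were called higher, 438 lower and 1 different between primed and naive leaves. These 3 counts stayed within 1.5 times with DESeq2 size factors, with a minimum of 5 CPM and with legacy = FALSE, and so did the higher and lower counts without a filter on low counts, where none was different (3294 at an unadjusted p below 0.05). With all 12 libraries 96, 59 and 0 were called (edgeR; 519 interaction p below 0.05), and with only the 6 primed libraries 114 and 95. The DESeq2 Wald test called 916, 1242 and 753. In simulated data with log2 changes of 2, it made more false calls than edgeR (67 against 10) and recovered more of the changes (89% against 72.5%). No simulated library was set apart from its group as P-r1 was. A minimum log2 change of 0.5 gave 119, 107 and 0. Which step causes these differences was not tested.

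Deviations from the group mean in same-numbered P and P+T libraries had correlations of 0.34, −0.0987 and −0.329. With 3 libraries per group, these values cannot settle whether replicate numbers pair the samples. A replicate block gave 267, 258 and 0 calls (3134 interaction p below 0.05) and turned ELIP1 to 0.42. With the block in the 6 primed libraries alone, an alternative chosen after the data were seen, edgeR called 0 loci higher and 0 lower. In that fit 3268 loci had an unadjusted p below 0.05, and ELIP1 was at 0.39. Without the block, edgeR on these 6 libraries called 114 and 95. The DESeq2 Wald test was run without a block on the 10 libraries of the main fit only, with 2158 calls in all.

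Leaving out libraries, including P-r1 and P+T-r1 together (682 higher and 884 lower, chosen after the data were seen), gave 55 to 976 loci higher, 22 to 1266 lower and 0 to 492 different. Among the 55 named loci, signs turned for uncalled genes only: STZ ranged from −0.37 to 1.55, NPQ4 from −0.49 to 0.29, PRR9 from −0.74 to 0.60, CCA1 from −1.71 to 0.26, ELIP1 from −0.62 to 1.27 and TT4 from −1.97 to 0.22. The groups did not overlap in 805 of the 806 called loci. Leaving out a library could therefore hardly turn the sign of a called locus, and unturned signs are no further support for the calls. Of the 712 values that the alternatives gave for the 42 named loci that were called, 229 lost the call. In simulated counts edgeR recovered 0% and DESeq2 30% of log2 changes of 1, while the calls in the data reached down to 0.48 and −0.48, so that loci with such changes may be missed.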

Other observations

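The loci with the smallest p in each direction, chosen after their values were seen, lay mostly outside the lists (21 of 25 higher and 23 of 25 lower), and the 25 higher were called whichever P or P+T library was left out, as were 18 of the 25 lower, the others losing the call without P+T-r3. Chaperonins, the barrel-shaped folding machines of plastids and mitochondria, were among the higher ones. Cpn60beta2 had the smallest p of all, at 136, 94.0 and 119 CPM in P-r1 to P-r3 and 1017, 1029 and 939 CPM in P+T-r1 to P+T-r3 (log2 fold change 3.10 ± 0.19 SE, FDR 0.00149, edgeR). Cpn60beta3 (1.74 ± 0.19), the mitochondrial HSP60 (2.46 ± 0.28) and the co-chaperonin CPN10 (2.09 ± 0.20) were higher too. Unlike HSP101 or HSFA2, Cpn60beta2 stood at a similar level in P-r1 and in the other P libraries. Further ER and secretory loci were the nucleotide sugar transporter UTR1 (6.38, 5.53 and 10.2 CPM; 112, 55.7 and 72.7 CPM; 3.44 ± 0.35), DER1, a derlin of ER-associated degradation (2.56 ± 0.26), and ECA4, an endomembrane calcium pump (1.64 ± 0.18). Genes with chromatin roles were also present, namely VIM1, a maintenance factor of CG methylation (5.87, 6.29 and 5.07 CPM in P; 29.4, 27.0 and 20.2 CPM in P+T; 2.15 ± 0.19), and the histone deacetylase HD2C (1.69 ± 0.17). FD1, a leaf ferredoxin, was at 246, 268 and 301 CPM and at 1034, 972 and 1077 CPM (1.92 ± 0.20).

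On the lower side were TBL45, of the family that acetylates wall polymers (40.7, 27.1 and 29.9 CPM; 6.48, 6.65 and 6.94 CPM; −2.28 ± 0.22), KCS8, a 3-ketoacyl-CoA synthase (−3.17 ± 0.34), BCAT-1, a branched-chain amino acid transaminase (−1.50 ± 0.14), the zinc finger factors IDD4 (−2.04 ± 0.20) and IDD2 (−1.57 ± 0.19), TGA4, a bZIP factor (14.6, 16.4 and 17.2 CPM; 6.34, 6.45 and 6.60 CPM; −1.31 ± 0.13), and PATL1, a patellin (543, 797 and 464 CPM; 128, 178 and 129 CPM; −2.05 ± 0.25). In each of these the P+T libraries lay below the P libraries without overlap. No theme is claimed from them, since no list covering these loci was tested.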
